A study of Mus musculus with 18 samples.

Results

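The 48 nuclear genes described here, of 19937 genes measured, encode respiratory complexes II to V and cytochrome c of the inner mitochondrial membrane. Complex II, succinate dehydrogenase, takes electrons from succinate and hands them to ubiquinone, and complex III, the cytochrome bc1 complex, passes them to the small carrier cytochrome c. Complex IV, cytochrome c oxidase, gives them to oxygen, while complex V, the ATP synthase, uses the proton gradient that complexes III and IV build. Brown adipose tissue (BAT) is rich in mitochondria and known for burning this gradient as heat through an uncoupling protein, and its ATP synthase content in rodents is known to be low for its respiratory chain. White adipose tissue (WAT) stores lipid and holds fewer mitochondria.

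The genes were taken by symbol: Sdha to Sdhd for complex II, Cyc1 and all Uqcr genes for complex III, Cycs for cytochrome c, all Cox4 to Cox8 genes for complex IV and all Atp5 genes for complex V. Among genes with a probe set of their own this gave the 48, with 4 in complex II, 9 in complex III, 1 for cytochrome c, 17 in complex IV and 17 in complex V. Cox7c matched only on 3 probe sets that also list Gm12338 and was not analysed here, and 0 of the 6 subunits of complexes III to V encoded by mitochondrial DNA had a probe set with a single symbol. For 13 of the 48 genes several probe sets were present, 34 in all, and the brightest was used. Whether the further probe sets read near-identical copies was not tested. Their change in BAT had the sign of the one used for all 13 genes, but in WAT 8 genes had a probe set of opposite sign (Atp5g1, Atp5g2, Atp5h, Atp5l, Atp5md, Atp5pb, Cycs and Uqcrb).

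The study set mice that overexpress human FXR, the bile acid receptor farnesoid X receptor, in adipose tissue against wild-type mice. There were 5 FXR BAT and 5 control BAT arrays, and 4 FXR WAT and 4 control WAT arrays, each an Affymetrix mouse gene array hybridised with RNA of 1 sample. All samples came from male C57BL/6J mice, 10 weeks old and fed chow, although the extract text of control BAT 2 and 4 also mentions 6 weeks of feeding. The promoter that drives the transgene, the WAT depot and whether a mouse gave both tissues are not given in the sources used here. The design text calls the samples biological replicates, and p-values measure the spread between samples as labelled.

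Values are log2(intensity + 1) of the deposited table, and changes are FXR minus control with the standard error (SE) of limma unless stated. A gene is said to rise or fall where its adjusted p (limma, Benjamini-Hochberg over all 19937 genes) lay below 0.05. Mouse Nr1h4, which encodes FXR, lay at 6.21 to 6.31 on FXR BAT arrays and 6.15 to 6.28 on control BAT arrays (change 0.05 ± 0.03, adjusted p = 0.408, limma), and the probe set is not made for the human transgene. The 13 measured brown adipocyte markers averaged 8.85 to 9.06 on FXR BAT and 9.45 to 9.81 on control BAT arrays, against 6.07 to 6.13 on FXR WAT and 6.07 to 6.12 on control WAT arrays, as the tissue labels say. On FXR BAT 1, 2 and 4 the 29 skeletal muscle markers averaged 10.28, 9.70 and 10.31, above FXR BAT 3 and 5 (6.95 and 8.20) and the 5 control BAT arrays (6.85 to 8.42). Results in BAT are therefore also given without those 3 arrays. In tissue RNA, fewer cells of a type and less RNA per cell cannot be told apart.

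In FXR BAT, genes of every complex were lower than in control BAT. Of the 48 genes, 27 fell, 0 rose and 21 did not pass the test (at an unadjusted p below 0.05 it was 37 lower and 2 higher, limma), where 8.75% of all genes fell, 7.01% rose and 15.8% did either. The change was negative for 43 genes and its median was -0.24, a 0.849-fold level, against 0.01 for all genes. For 16 genes all FXR BAT arrays lay below all control BAT arrays, and for 0 genes above them, where 6.29% of all genes lay below and 5.89% above without overlap. By complex, 3 of 4 genes fell in complex II, 8 of 9 in complex III, 8 of 17 in complex IV and 8 of 17 in complex V, while cytochrome c missed the threshold. The median changes were -0.27, -0.30, -0.20 and -0.22 for complexes II, III, IV and V. The plot of levels by array shows this shift for most rows in BAT, with Cox6a2 and Atp5g1 as the rows that stand to the right.

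**Figure D1:**
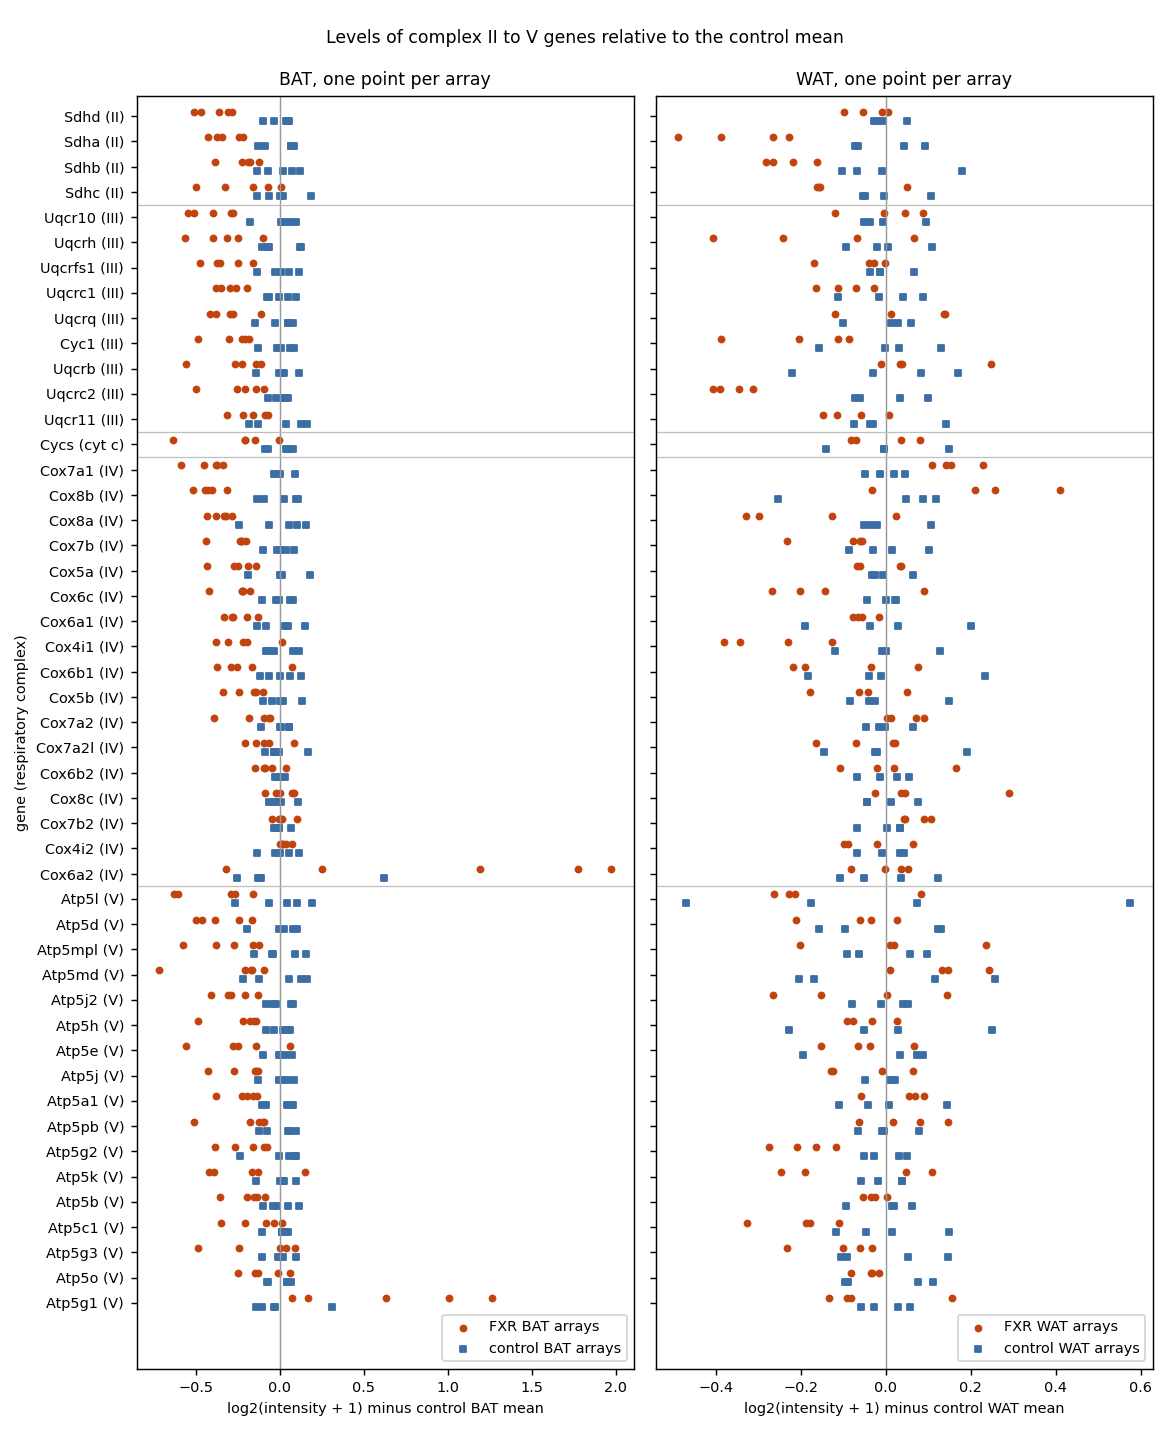
Level of each of the 48 genes on every array, as log2(intensity + 1) minus the control mean of that tissue (x axis), in BAT (left) and WAT (right), with circles for FXR arrays, squares for control arrays and horizontal lines between complexes. In BAT most circles lie left of the squares, Cox6a2 and Atp5g1 excepted, whereas in WAT circles and squares mostly mix.

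The size of the fall has to be read against brightness, because bright genes in general were lower in FXR BAT. Among genes with a mean of at least 10 over the BAT arrays, 27 of 41 genes of complexes II to V fell (65.9%), with a median of -0.25, and 48.9% of the 587 other genes did, with a median of -0.24. At a mean of at least 11 it was 23 of 31 (74.2%), median -0.25, against 55% of 191 other genes, median -0.26. This comparison by brightness was added after the data were seen. The top of the intensity range differed between the groups as well: 99% of genes lay below 10.94 to 11.20 on FXR BAT arrays and below 11.17 to 11.38 on control BAT arrays. The 10 arrays were also quantile-normalized, which gives all arrays the same distribution. In that setting 7 of the 48 genes fell and 0 rose, where 6.88% of all genes fell and 5.38% rose. Those that fell were Uqcr10, Cox7a1, Cox8b, Cox8a, Sdhd, Uqcrfs1 and Cox6b2, and the median over the 48 was -0.02. At a mean of at least 10 these falls were then 6 of 41 genes (14.6%), against 15.3% of the other genes. Why bright genes were lower was not tested.

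**Figure D2:**
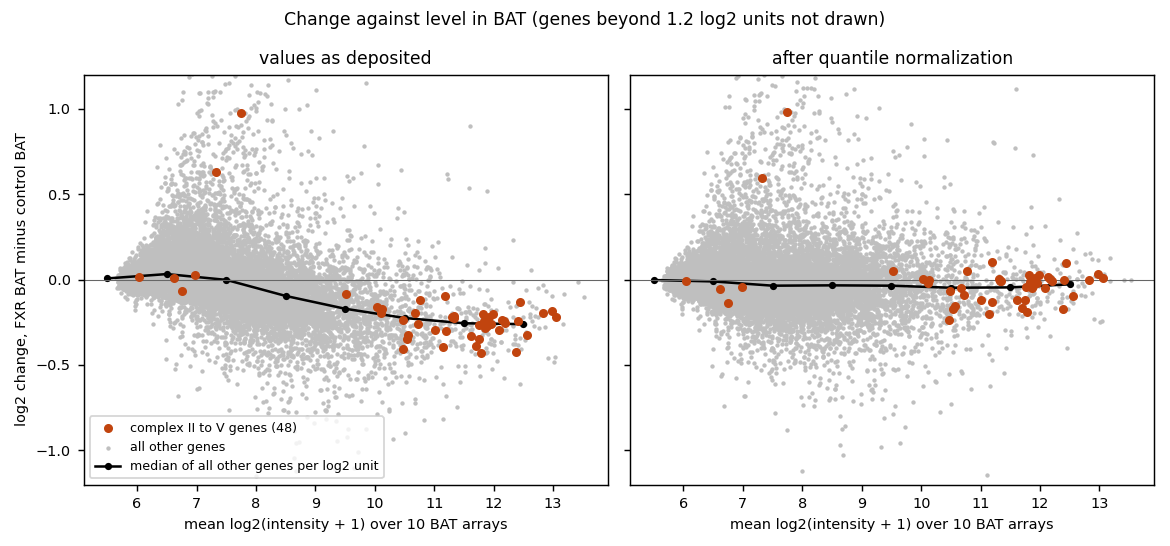
Change in BAT (y axis, log2, FXR minus control) against the mean level over the 10 BAT arrays (x axis), for the values as deposited (left) and after quantile normalization (right), with the 48 genes of complexes II to V in red, other genes in grey and the median of the other genes per log2 unit as a black line. On the left the red points at high level lie around the falling black line, and on the right they lie around 0.

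Cox7a1, Cox8b, Sdhd and Uqcr10 fell under each of the 21 other settings tried, quantile normalization and each array left out included. Cox7a1, the heart and muscle form of subunit 7a of complex IV that brown fat also makes, lay at 11.65, 11.61, 11.54, 11.62 and 11.40 in FXR BAT 1 to 5 and at 11.99, 12.08, 11.97, 11.97 and 11.96 in control BAT 1 to 5. All FXR arrays were below all control arrays, and FXR BAT 5 was the lowest. The change was -0.43 ± 0.05 (adjusted p = 0.000227, limma), a 0.743-fold level. Cox8b, the muscle and brown fat form of subunit 8, lay at 12.14, 12.28, 12.19, 12.16 and 12.07 in FXR BAT and at 12.69, 12.70, 12.50, 12.62 and 12.46 in control BAT. Its groups did not overlap either, with a change of -0.42 ± 0.06 (adjusted p = 0.000601, limma).

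Sdhd, a membrane anchor of complex II, lay at 11.61, 11.59, 11.43, 11.53 and 11.38 in FXR BAT and at 11.86, 11.95, 11.95, 11.93 and 11.79 in control BAT. The groups were apart, with a change of -0.39 ± 0.05 (adjusted p = 0.000603, limma). Uqcr10, a small accessory subunit of complex III, lay at 10.28, 10.38, 10.16, 10.40 and 10.13 in FXR BAT and at 10.70, 10.74, 10.68, 10.77 and 10.50 in control BAT. Here too no FXR array reached a control array, and the change was -0.41 ± 0.07 (adjusted p = 0.00195, limma). After quantile normalization the 4 changes were -0.19 for Cox7a1, -0.17 for Cox8b, -0.17 for Sdhd and -0.24 for Uqcr10. Without FXR BAT 1, 2 and 4 they were -0.52, -0.46, -0.49 and -0.53, in the same order.

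The promoters of these 4 genes are shown because their falls were the ones that no setting removed. Each is the RefSeq window on GRCm38.p6 from 250 bases before to 50 bases after the gene's start, written 5′ to 3′ on the gene's strand, and capitals mark matches, on either strand, to the motifs searched.
Cox7a1 (chr7:30183921-30184220, plus strand): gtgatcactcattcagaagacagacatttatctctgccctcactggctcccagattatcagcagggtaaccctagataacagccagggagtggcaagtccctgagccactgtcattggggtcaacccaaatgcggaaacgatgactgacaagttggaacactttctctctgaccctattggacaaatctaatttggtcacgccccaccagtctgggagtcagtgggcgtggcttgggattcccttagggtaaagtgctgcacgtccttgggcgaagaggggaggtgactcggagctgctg
Cox8b (chr7:140900397-140900696, minus strand): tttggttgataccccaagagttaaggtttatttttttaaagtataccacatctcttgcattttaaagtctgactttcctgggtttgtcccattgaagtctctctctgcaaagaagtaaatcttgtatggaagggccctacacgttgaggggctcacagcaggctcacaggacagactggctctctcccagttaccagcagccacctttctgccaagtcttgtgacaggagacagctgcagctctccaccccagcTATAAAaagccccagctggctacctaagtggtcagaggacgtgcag
Sdhd (chr9:50603800-50604099, minus strand): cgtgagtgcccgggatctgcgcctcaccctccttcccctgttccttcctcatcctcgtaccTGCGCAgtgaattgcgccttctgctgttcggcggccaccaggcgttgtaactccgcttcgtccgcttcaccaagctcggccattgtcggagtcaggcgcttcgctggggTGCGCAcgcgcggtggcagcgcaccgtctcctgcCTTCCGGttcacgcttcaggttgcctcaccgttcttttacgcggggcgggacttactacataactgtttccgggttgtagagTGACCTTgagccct
Uqcr10 (chr11:4704295-4704594, minus strand): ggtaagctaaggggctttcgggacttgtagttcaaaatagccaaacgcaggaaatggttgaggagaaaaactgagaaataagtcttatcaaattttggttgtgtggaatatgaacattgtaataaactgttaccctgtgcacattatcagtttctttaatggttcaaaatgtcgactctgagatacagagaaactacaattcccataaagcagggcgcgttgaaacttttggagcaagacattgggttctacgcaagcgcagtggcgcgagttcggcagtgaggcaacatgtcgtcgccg
The motifs searched, on both strands, were AAGGTCA (a site of orphan nuclear receptors such as ERRα), TGCGCA (core of the NRF1 site), CCGGAAG (an ETS factor site, as bound by GABPA), AAGATGG (core of the YY1 site) and, added after the sequences were seen, TATAAA (core of the site of the TATA-binding protein). None of these motifs contains another. Sdhd held the first 3, Cox8b held only TATAAA, and Cox7a1 and Uqcr10 held none of the 5 in this window. Windows were found for 36 of the 48 genes, 39 in all. AAGGTCA stood in 12.8% of the 39 windows and in 4.72% of all 32851 windows of the table, and TGCGCA in 20.5% against 7.76%. CCGGAAG stood in 33.3% against 8.86%, AAGATGG in 7.69% against 6.34%, and TATAAA in 10.3% against 13.6%. A match describes letters and is not a bound site.

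In complex II the other catalytic and anchor genes went the same way as Sdhd. Sdha, the flavoprotein that oxidises succinate, lay at 12.29, 12.38, 12.48, 12.50 and 12.35 in FXR BAT, below its 12.79, 12.81, 12.59, 12.79 and 12.64 in control BAT on every array. The change was -0.32 ± 0.06 (adjusted p = 0.00308, limma). Sdhb, the iron-sulfur subunit, fell by 0.22 ± 0.06 (adjusted p = 0.0279, limma) with FXR BAT arrays at 11.03 to 11.29 and control BAT arrays at 11.28 to 11.53. Sdhc, the other anchor, changed by -0.21 ± 0.09 and did not pass (adjusted p = 0.163, limma), as FXR BAT arrays at 10.93 to 11.44 reached into the 11.29 to 11.62 of control BAT.

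Complex III had the largest share of falls. Uqcrfs1, the Rieske iron-sulfur protein, fell by 0.32 ± 0.06 (adjusted p = 0.00564, limma), Uqcrc1, a core protein, by 0.30 ± 0.05 (adjusted p = 0.00152, limma), and Cyc1, cytochrome c1, by 0.28 ± 0.06 (adjusted p = 0.00974, limma). Their FXR BAT arrays, at 10.24 to 10.56, 11.86 to 12.04 and 11.51 to 11.81, lay under the control BAT arrays, at 10.59 to 10.83, 12.16 to 12.34 and 11.87 to 12.08. Uqcrc2, the other core protein, fell by 0.24 ± 0.07 (adjusted p = 0.0314, limma), and the small subunit genes Uqcrh, Uqcrq and Uqcrb fell by 0.33, 0.30 and 0.26. Uqcr11, a small subunit gene, changed by -0.17 ± 0.07 (adjusted p = 0.152, limma). Cycs, the gene of the carrier cytochrome c, lay at 12.14, 12.28, 12.08, 12.08 and 11.65 in FXR BAT and at 12.21, 12.34, 12.37, 12.32 and 12.20 in control BAT. FXR BAT 5 was far below the rest, and the change of -0.24 ± 0.10 did not pass (adjusted p = 0.126, limma).

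In complex IV, besides Cox7a1 and Cox8b, the widely expressed subunit genes Cox8a, Cox7b, Cox6c, Cox6a1, Cox5a and Cox5b fell, by 0.35, 0.27, 0.25, 0.25, 0.26 and 0.20. Of these, Cox8a, the general form of subunit 8, lay at 10.34, 10.40, 10.43, 10.38 and 10.28 in FXR BAT, under the 10.77, 10.87, 10.65, 10.82 and 10.47 of control BAT (adjusted p = 0.00601, limma). Cox4i1, the general form of subunit 4, changed by -0.22 ± 0.07 (adjusted p = 0.0573, limma), Cox6b1 by -0.20 and Cox7a2 by -0.16, and none of these passed. Cox7a2l changed by -0.09 ± 0.06 (adjusted p = 0.409, limma). The lung form Cox4i2 and the testis forms Cox7b2 and Cox8c changed by 0.03, 0.01 and 0.01, and Cox6b2, a testis form, by -0.07, with 0 of the 4 past the threshold. Cox7b2 and Cox8c lay below the array medians of both tissues, and Cox7b2 lay within 1.5-fold of the 1% quantile on all arrays, so a change of it would hardly be seen. Cox6b2 passed with arrays centred on their medians and with quantile normalization, where it changed by -0.14 (adjusted p = 0.0288, limma).

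Isoforms of 1 subunit were compared within each array. Each array's log2 difference between Cox7a1 and Cox7a2, taken relative to its mean in control BAT, lay at -0.33 to -0.20 on FXR BAT arrays and -0.08 to 0.08 on control BAT arrays. The change of Cox7a1 was thus 0.27 more negative than that of Cox7a2 on average, without overlap between the groups. The same difference for Cox8b and Cox8a lay at -0.12 to 0.01 in FXR BAT and -0.08 to 0.11 in control BAT, a mean of -0.07 with overlapping groups. Cox4i2 over Cox4i1 averaged 0.25 higher in FXR BAT, again with overlap, and 0.23 higher in FXR WAT without overlap. Cox4i2 itself changed by 0.03 in BAT and -0.04 in WAT, and Cox4i1 by -0.22 and -0.27. The genes of a pair also differ in brightness, with means over the BAT arrays of 6.98 for Cox4i2, 11.92 for Cox4i1, 11.78 for Cox7a1 and 10.03 for Cox7a2. The part of brightness in these differences was not tested.

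**Figure D3:**
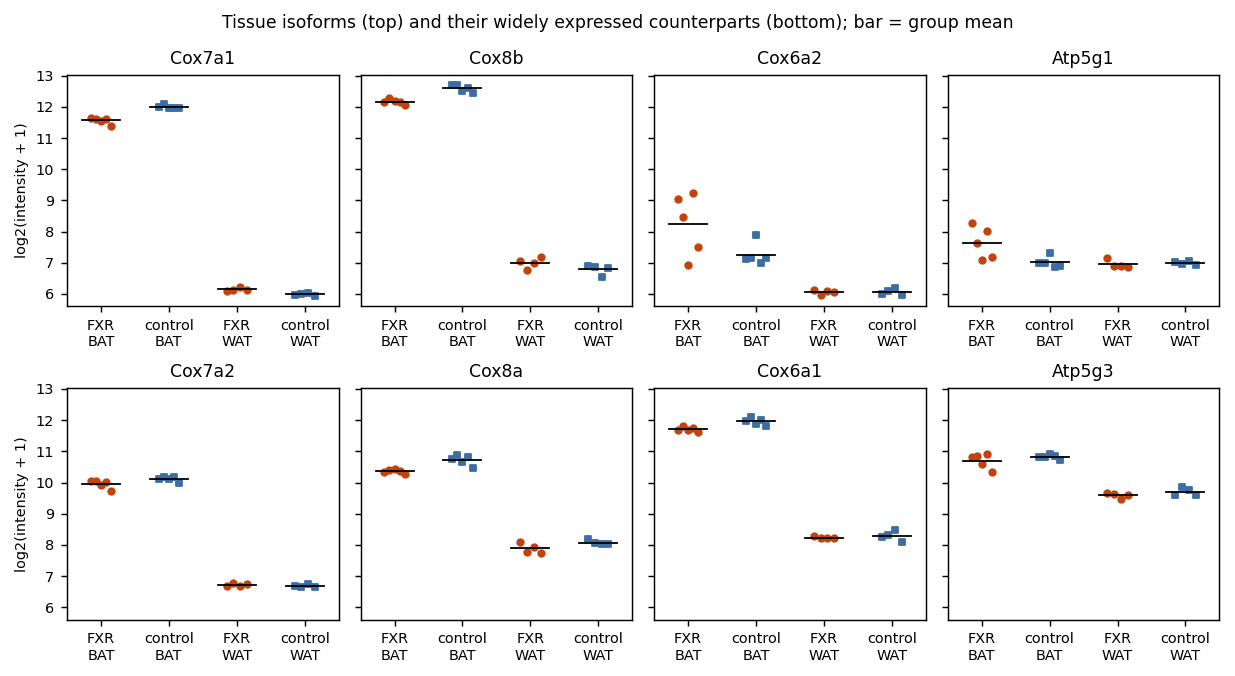
Level of the tissue isoform genes Cox7a1, Cox8b and Cox6a2 (top row) and the general form of each, Cox7a2, Cox8a and Cox6a1 (bottom row). The last column shows Atp5g1 (top) and Atp5g3 (bottom), both genes of the c subunit and not a tissue and general form. Points are log2(intensity + 1), 1 per array, with the group mean as a bar, in FXR BAT, control BAT, FXR WAT and control WAT. Cox7a1 and Cox8b are lower in FXR BAT than in control BAT without overlap and far higher in BAT than in WAT, while Cox6a2 and Atp5g1 spread widely in FXR BAT.

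Cox6a2 and Atp5g1 had the largest positive values of the 48 genes in BAT and did not pass the test as deposited. Both were called higher in the fit over all 18 arrays and without FXR BAT 3, and Atp5g1 also without FXR BAT 5. Cox6a2, the heart and muscle form of subunit 6a of complex IV, lay at 9.03, 8.45, 6.94, 9.23 and 7.51 in FXR BAT 1 to 5 and at 7.13, 7.14, 7.88, 7.01 and 7.15 in control BAT 1 to 5. FXR BAT 1, 2 and 4 were above all control arrays, FXR BAT 3 was below them, and control BAT 3 was the highest control. The change was 0.97 ± 0.40 (adjusted p = 0.132, limma). Atp5g1, which encodes 1 of the 3 precursors of the c subunit of the ATP synthase, lay at 8.28, 7.65, 7.09, 8.02 and 7.18 in FXR BAT and at 6.99, 6.98, 7.33, 6.88 and 6.91 in control BAT. The change was 0.63 ± 0.21 (adjusted p = 0.0666, limma) on this probe set, the brighter of 2, and 0.11 on the other. The same 3 arrays were high as for Cox6a2, and control BAT 3 was again the highest control.

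These are also the arrays on which skeletal muscle markers were high. Of the 29 muscle markers, 2 rose (Myh1 and Myh2), where 7.01% of all genes rose. At an unadjusted p below 0.05 it was 20 higher and 0 lower (limma). The changes were positive for all 29, with a median of 1.68. Without FXR BAT 1, 2 and 4 the change was -0.03 for Cox6a2 and 0.12 for Atp5g1. Cox7a1, which muscle also expresses, was below all control arrays on all 5 FXR BAT arrays. Among these it was higher on FXR BAT 1, 2 and 4 (11.65, 11.61 and 11.62) than on FXR BAT 3 and 5 (11.54 and 11.40). The mean of the complex III genes had the same order (11.23, 11.30 and 11.29 against 11.16 and 11.02). Cox8b did not (12.14, 12.28 and 12.16 against 12.19 and 12.07). The part of muscle in these values was not tested. The change of Cox7a1 was -0.43 with all arrays and -0.52 without FXR BAT 1, 2 and 4. Without those 3 arrays, which leaves FXR BAT 3 and 5 against 5 controls, 35 of the 48 genes fell, where 4.98% of all genes did. FXR BAT 5 was the lowest of the 10 BAT arrays for 38 of the 48 genes.

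**Figure D4:**
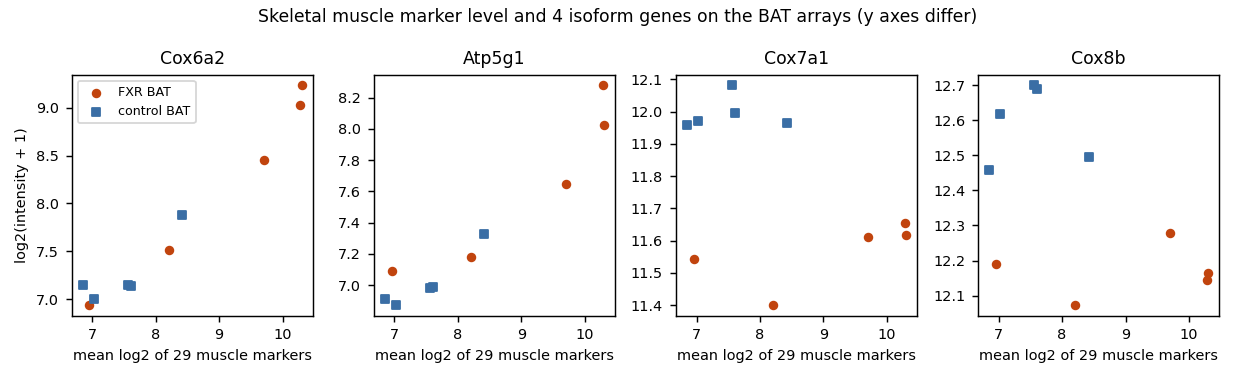
Level of 4 isoform genes (y axes, log2(intensity + 1), scales differ) against the mean log2 of 29 skeletal muscle markers (x axis) on the 10 BAT arrays, with circles for FXR and squares for control arrays. Cox6a2 and Atp5g1 are high on the 3 FXR arrays with the highest marker level, whereas Cox7a1 and Cox8b are below the controls on all 5 FXR arrays.

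In complex V the catalytic head and the membrane part both had genes that fell. Atp5b, the catalytic beta subunit, lay at 12.87, 12.98, 12.93, 12.91 and 12.71 in FXR BAT and at 13.05, 13.18, 13.03, 13.12 and 12.97 in control BAT, where only FXR BAT 2 reached the lowest control. It fell by 0.19 ± 0.06 (adjusted p = 0.0425, limma), and Atp5a1, the alpha subunit, by 0.22 ± 0.05 without overlap (adjusted p = 0.0187, limma). Atp5j2 (subunit f), Atp5d (delta) and Atp5l (subunit g) fell by 0.27, 0.35 and 0.39, and Atp5h (subunit d), Atp5j (coupling factor 6) and Atp5mpl by 0.24, 0.22 and 0.30. Atp5b, Atp5a1 and Atp5h, together with Sdhb and Uqcrc2 of the other complexes, had values above 0 after quantile normalization (0.03, 0.01 and 0.01, with 0.00086 and 2.9e-05 for Sdhb and Uqcrc2). The gamma and epsilon genes Atp5c1 and Atp5e changed by -0.13 and -0.23, Atp5pb (subunit b) by -0.20, Atp5md by -0.27, Atp5k by -0.19 and Atp5o, the stalk subunit OSCP, by -0.10, and none of these passed.

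The genes of the c ring, whose supply is known to limit ATP synthase in rodent brown fat, gave no call. Atp5g2 changed by -0.20 ± 0.08 (adjusted p = 0.11, limma) and Atp5g3 by -0.12 ± 0.10 (adjusted p = 0.483, limma), opposite in sign to Atp5g1. Atpif1, the inhibitory factor of the ATP synthase and no Atp5 gene by symbol, lay at 8.20, 8.00, 8.15, 8.16 and 8.09 in FXR BAT and at 7.90, 7.90, 7.99, 8.01 and 7.83 in control BAT. Only FXR BAT 2 touched the control range, and Atpif1 rose by 0.20 ± 0.05 (adjusted p = 0.0158, limma), against the direction of the subunits. It rose in all 10 fits with 1 array left out and with quantile normalization (0.22), but it did not pass in 3 of the 21 other settings. These were centring of arrays on their medians (0.12, adjusted p = 0.107, limma), the fit over all 18 arrays (0.20, adjusted p = 0.153, limma) and leaving out FXR BAT 1, 2 and 4 (0.19, adjusted p = 0.0736, limma).

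The number of falls in BAT was smaller in most fits with 1 array left out. Without control BAT 2, which was the highest array for 24 of the 48 genes, 15 genes fell (6.13% of all genes), and without control BAT 4, 17 did (6.14%). Without control BAT 1, 3 or 5 it was 18, 19 and 28 (7.74%, 7.06% and 8.96%). Without FXR BAT 1 to 5 in turn it was 23, 31, 22, 24 and 21 (7.17%, 7.27%, 10.3%, 7.46% and 6.87%). The median moved most without FXR BAT 5 (-0.18, against -0.21 without control BAT 2). Leaving out both control BAT 2 and 4, whose extract text differs, left 7 falls at a median of -0.20, and the share of all genes that fell was then 3.57%. The falls of 15 of the 27 genes were called in each of the 10 fits with 1 array left out.

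Other genes of the pathway were lower in FXR BAT too. Of 38 measured assembly factors and genes of mitochondrial DNA expression, 25 fell and 0 rose (0 higher at an unadjusted p below 0.05, limma), with a median of -0.27, among them Ttc19 (-0.37), a complex III factor, Cox15 (-0.41), a haem A synthase, and Cox17 (-0.49), a copper chaperone of complex IV. Of 34 subunit genes of complex I, 26 fell and 0 rose, with a median of -0.27, and Ndufs7, Ndufc1 and Ndufb8 changed by -0.40, -0.42 and -0.25. Of all genes, 8.75% fell and 7.01% rose. The complex I list averaged 10.11 to 10.33 in FXR BAT and 10.42 to 10.59 in control BAT. Of genes outside the 48 with a mean of at least 10, 48.9% fell. The part of brightness in these falls was not tested. After quantile normalization 13 assembly and 7 complex I genes fell, where 6.88% of all genes did. Without FXR BAT 1, 2 and 4 it was 20 and 23, where 4.98% of all genes fell. Of 16 regulators of respiratory genes, 5 fell and 0 rose, with 4 falls after quantile normalization and 1 without FXR BAT 1, 2 and 4, where the median was -0.01. Ppargc1a, the coactivator that drives mitochondrial genes in brown fat, lay at 8.09, 8.30, 8.34, 8.37 and 8.29 in FXR BAT and at 9.03, 9.21, 9.26, 9.23 and 8.54 in control BAT. No FXR array reached a control array, and the change was -0.78 ± 0.12 (adjusted p = 0.00195, limma). Its relative Ppargc1b changed by -0.46 ± 0.09, the receptor gene Esrra by -0.36 ± 0.07, and the mitochondrial DNA factors Tfb2m and Tfam by -0.36 and -0.23. The calls of these last were fragile: with 1 array left out, Tfb2m passed in 5 of 10 fits and Tfam in 4 of 10, and after quantile normalization Tfb2m did not pass (-0.19, adjusted p = 0.108, limma). Gabpa (-0.23, adjusted p = 0.209, limma) and Nrf1 (0.06, adjusted p = 0.64, limma) did not pass.

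Markers of the cell types in the tissue moved as well. Of 13 brown adipocyte markers 8 fell and 1 rose, and of 16 mature adipocyte markers 11 fell and 1 rose, where the mature adipocyte list averaged 10.86 to 11.03 in FXR BAT and 11.04 to 11.25 in control BAT. Of 20 macrophage markers 19 rose, with list means of 7.69 to 7.83 in FXR BAT and 6.95 to 7.25 in control BAT. Of 16 fibroblast and progenitor markers 15 rose, with list means of 9.40 to 9.52 in FXR BAT and 8.04 to 8.53 in control BAT. Of 14 endothelial markers 4 fell and 1 rose, at 8.23 to 8.53 in FXR BAT and 8.48 to 8.67 in control BAT. Of all genes, 8.75% fell and 7.01% rose. After quantile normalization 7 brown adipocyte markers fell, and 1 mature adipocyte marker fell and 1 rose. In that setting 17 macrophage and 15 fibroblast markers rose and 4 endothelial markers fell, where 6.88% of all genes fell and 5.38% rose. Without FXR BAT 1, 2 and 4 it was 6 brown and 4 mature adipocyte markers that fell, with 1 of each list that rose. In that fit 17 macrophage and 15 fibroblast markers rose and 2 endothelial markers fell, where 4.98% of all genes fell and 4.61% rose. The part of cell composition in the levels of the respiratory genes was not tested.

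In WAT, FXR arrays differed from controls for few of these genes. Of the 48, 2 fell and 0 rose (8 lower and 1 higher at an unadjusted p below 0.05, limma), where 0.456% of all genes fell and 0.873% rose, and 34 values were negative with a median of -0.05. Without overlap between the groups, 5 genes were lower (3.47% of all genes) and 2 higher (4.31%). At a mean of at least 8 over the WAT arrays it was 2 of 23 genes (8.7%), with a median of -0.09, against 3.11% of 1156 other genes, with a median of 0.05.

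Uqcrc2, a core protein of complex III, lay at 8.58, 8.68, 8.64 and 8.60 in FXR WAT 1 to 4 and at 8.92, 9.02, 9.09 and 8.93 in control WAT 1 to 4. The groups were wide apart, with a change of -0.36 ± 0.04 (adjusted p = 0.0114, limma), a 0.777-fold level, and it fell under each of the 17 other settings. Sdha lay at 9.64, 9.86, 9.74 and 9.90 in FXR WAT and at 10.06, 10.17, 10.06 and 10.22 in control WAT. All FXR arrays were lower, with a change of -0.34 ± 0.06 (adjusted p = 0.0422, limma), but the call was lost in 7 of the 8 fits with 1 array left out. The 7 fits, all but the one without control WAT 3, gave an adjusted p of 0.0546 to 0.137 (limma).

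Sdhb, Cox4i1 and Atp5g2 were also lower in FXR WAT without overlap and did not pass. Sdhb lay at 7.79, 7.73, 7.85 and 7.74 in FXR WAT and at 7.91, 7.94, 8.00 and 8.19 in control WAT (change -0.23, adjusted p = 0.125, limma). Cox4i1 lay at 9.56, 9.46, 9.35 and 9.31 in FXR WAT and at 9.82, 9.69, 9.57 and 9.68 in control WAT (change -0.27, adjusted p = 0.109, limma). Atp5g2 changed by -0.19 ± 0.04 (adjusted p = 0.0664, limma), and after quantile normalization it and Atp5c1 (-0.30) passed beside Uqcrc2 and Sdha.

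Cox7a1 and Cox8b had positive values in WAT. Cox7a1 lay at 6.10, 6.14, 6.22 and 6.13 in FXR WAT and at 5.98, 6.01, 6.04 and 5.94 in control WAT, without overlap and with a change of 0.16 ± 0.04 that did not pass (adjusted p = 0.0806, limma). On 2 of 4 FXR WAT arrays and all 4 control WAT arrays it lay within 1.5-fold of the array's 1% quantile, here called the dim end, so its WAT level is not well measured. Cox8b lay at 7.04, 6.76, 7.00 and 7.20 in FXR WAT and at 6.91, 6.87, 6.53 and 6.84 in control WAT (change 0.21 ± 0.11, adjusted p = 0.473, limma). Relative to the general form, Cox7a1 over Cox7a2 was higher by 0.11 and Cox8b over Cox8a by 0.39 in FXR WAT, both without overlap. Assembly factors, complex I genes and regulators gave 0 calls in WAT among 38, 34 and 16 genes (8, 10 and 1 at an unadjusted p below 0.05, limma), with Ppargc1a at -0.07 ± 0.03. Of 16 fibroblast markers 2 rose in FXR WAT and of 20 macrophage markers 0 (6 higher at an unadjusted p below 0.05, limma), and their part in these values was not tested.

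Whether FXR changes differed between the tissues was tested as the change in BAT minus the change in WAT. For 5 of the 48 genes the difference was negative and passed, and for 0 it was positive (17 and 1 at an unadjusted p below 0.05, limma), where 4.44% of all genes passed below 0 and 2.02% above. They were Cox7a1 (-0.59 ± 0.06, adjusted p = 9.00e-05, limma), Cox8b (-0.63 ± 0.12, adjusted p = 0.00435), Sdhd (-0.35 ± 0.07, adjusted p = 0.00428), Uqcr10 (-0.41 ± 0.09, adjusted p = 0.0112) and Uqcrq (-0.34 ± 0.09, adjusted p = 0.0372). Cox7a1 passed in each of the 28 other settings, although its WAT levels were near the dim end. After quantile normalization of all arrays it was the only one of the 5 to pass, at -0.40, and Atp5c1, Sdhb and Uqcrc2 passed above 0, at 0.39, 0.29 and 0.48. For Sdha, which fell in both tissues, the difference was 0.02 ± 0.09 (adjusted p = 0.947, limma), with an interval of -0.17 to 0.21.

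The genes set the 2 tissues far apart in both genotypes. In FXR mice 48 of 48 genes were higher in BAT than in WAT, and in control mice 47 of 48, with Atp5g1 as the exception. The dimmer probe set of Atp5g1, not used here, was 0.39 higher in control BAT. With the mean of all probe sets 48 of 48 were higher in control mice, where 94.9% of all genes were. The counts as deposited include Cox7b2, which lay near the dim end on all arrays. The tissues were not brought to 1 distribution in the deposited values, so these counts stand beside 95.1% of all genes called higher and 1.29% called lower in FXR mice, and 94.8% and 1.98% in control mice. Relative to the median gene, which was 0.63 higher in FXR BAT than in FXR WAT and 0.59 higher in control BAT than in control WAT, the 48 genes had medians of 2.12 and 2.31. Ranked by the difference among all 19937 genes, 41 of the 48 were in the top 1000 in FXR mice and 39 in control mice. After quantile normalization 41 genes were higher and 2 lower in FXR BAT than in FXR WAT, where 26.9% of all genes were higher. In control mice it was 43 higher and 3 lower, where 29.1% were higher.

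Cox7a1 and Cox8b stood near the very top. In FXR mice Cox7a1 was 5.42 higher in BAT than in WAT, rank 3 of all genes, with 2 of 4 FXR WAT arrays near the dim end, and Cox8b was 5.17 higher, rank 5. In control mice Cox8b was 5.80 higher, rank 4. All 4 control WAT arrays were near the dim end for Cox7a1, with means of 11.99 in control BAT and 5.99 in control WAT. The difference was at least 5.86, a level at least 58.1-fold higher, when each WAT array is set to 1.5 times its 1% quantile. Atp5md and Cycs differed by 4.92 and 4.78 in control mice, ranks 10 and 12, on the brightest of the 3 probe sets of each. Their other probe sets gave smaller differences, 1.76 and 3.36 for Atp5md and 4.38 and 1.55 for Cycs. By complex, the medians relative to the median gene in control mice were 2.36 for complex II, 2.94 for complex III, 2.05 for complex IV and 2.19 for complex V.

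At the other end were genes of the lung, testis and c ring forms. In control mice Atp5g1 differed by 0.03 between BAT and WAT on the brighter of its 2 probe sets and by 0.39 on the other. On the brighter one it lay at 6.88 to 7.33 in control BAT and 6.93 to 7.04 in control WAT. The 0.03 put it 0.56 below the median gene, while Atp5g2 and Atp5g3, the other c subunit genes, differed by 2.19 and 1.13. Relative to the median gene, Cox4i2 was 0.02 above it. Cox6b2 and Cox8c were near the dim end on all 4 control WAT arrays, with differences of at least 0.65 and 0.48, and Cox7b2 was so in both tissues, so it is given no difference. After quantile normalization Atp5g1, Atp5g3 and Cox4i2 were lower in control BAT than in control WAT, by -0.96, -0.60 and -0.19. Atpif1, 0.36 higher in control BAT than in control WAT as deposited, was -0.88 after quantile normalization.

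**Figure D5:**
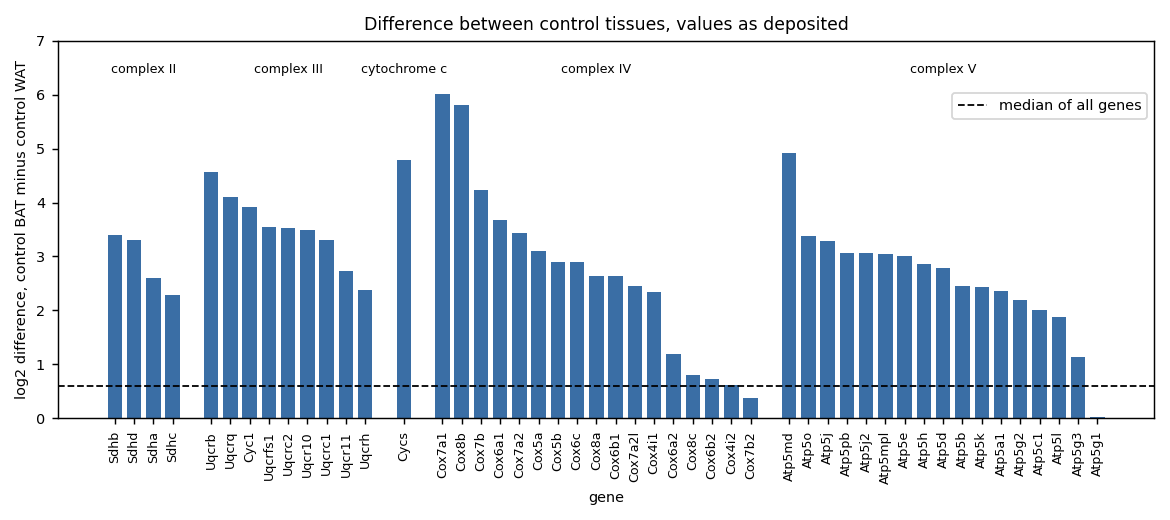
Difference between control BAT and control WAT in log2(intensity + 1) for each of the 48 genes, grouped by complex (bars from 0), with the median over all genes as a dashed line. Cox8b reaches 5.80, and the bar of Cox7a1 is set against WAT values near the dim end (difference at least 5.86). Most genes stand well above the dashed line, and Atp5g1 stands below it. Cox7b2 is also drawn below the line, but it lay near the dim end in both tissues, so its bar is not a measured difference.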

How the data were processed

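The values are the deposited intensities on a linear scale, and for their normalization by the authors the sources used here name no method. Per the labels' protocols, labelled cDNA was made from 500 ng of total RNA without rRNA reduction. Array medians were 93.1 to 99.9 in BAT and 60.5 to 61.7 in WAT, so the tissues do not share 1 distribution. The share of probe sets within 1.5-fold of an array's 1% quantile was 28.7% to 34.9% in BAT and 58.2% to 62.8% in WAT.

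Of 34760 probe sets, 21640 had 1 gene symbol in the platform annotation, 1321 several and 11799 none. The IDs of 21553 matched the RefSeq gene table, and 0 symbols changed. The brightest probe set per gene, by mean log2, was kept, which left 19937 genes. Dim genes were kept.

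Differences of log2(intensity + 1) were tested two-sided with limma 3.58.1 in R 4.3.3 (lmFit, eBayes), with Benjamini-Hochberg adjustment over all genes. FXR and control were compared within a tissue, BAT and WAT within a genotype, and the difference of changes over all 18 arrays. The fit was tested on simulated data. The number of arrays limits the precision. The members, gene lists, tests and settings were chosen with earlier results of these data known. Named genes were those of complex II, the core and isoform genes, the c subunit genes and Atpif1, up to 3 called genes per complex, list and comparison with the smallest adjusted p, called genes of minority sign, dim genes, genes with an array far from the rest, and the regulators. Other members are given as values so that all are accounted for. Settings tried were other offsets, quantile normalization, median centring, a filter on dim genes, the mean of all probe sets, a trended robust eBayes, a replicate block, all arrays in 1 fit and arrays left out. Python 3.11.15 drew the figures and searched the promoters.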

Additional observations from a re-analysis of the deposited data

Results flagged for a closer look

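Of 220 groups of 4 or 5 arrays tested over the 48 genes, 6 regulators and Atpif1, 16 held an array far from the rest, and chance marks about 1 in 20. FXR BAT 5 gave 5 of them, being low for Atp5h (11.77), Atp5md (11.29), Atp5pb (11.41), Cox6c (11.90) and Cox7b (11.46). Control BAT 3 was high for Cox6a2 (7.88) and Atp5g1 (7.33), and it had the highest muscle marker mean of the control BAT arrays (8.42). Control BAT 5 was low for Atp5c1 (12.40). FXR WAT 1 was high for Atp5l (9.56) and Sdhc (9.19), FXR WAT 4 low for Cox7b (7.44) and control WAT 2 low for Atp5j (8.12). Among regulators, FXR BAT 1 was low for Ppargc1a (8.09), FXR BAT 3 high for Ppargc1b (9.00), FXR WAT 2 low for Gabpa (6.87) and control WAT 1 high for Esrra (6.67).

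The change under FXR differed between tissues, as the change in BAT minus the change in WAT, for Cox7a1 (-0.59), Cox8b (-0.63), Sdhd (-0.35), Uqcr10 (-0.41) and Uqcrq (-0.34). Among the regulators it did so for Ppargc1a (-0.71, adjusted p = 0.00992, limma) and Esrra (-0.32, adjusted p = 0.029, limma). Ppargc1a passed in all 28 other settings and Esrra in 17 of them.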

How the results depend on the processing

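The other offsets, the filter on dim genes, the mean of all probe sets and the fit over all arrays left each count of calls within 1.5 times. With trended robust eBayes 19 genes passed in BAT, where 7.57% of all genes fell. In BAT, 27 genes passed as deposited, where 8.75% of all genes fell, and 7 after quantile normalization, where 6.88% did. With arrays centred on their medians 37 passed (20.4% of all genes fell), and without control BAT 2 and 4 it was 7 (3.57%). With 1 array left out 15 to 31 passed (6.13% to 10.3% of all genes fell). In WAT, 2 passed as deposited, where 0.456% of all genes fell, and 4 after quantile normalization, where 0.707% did. With trended robust eBayes it was 1 (0.426%), and with 1 array left out 1 to 2 (0.110% to 0.466%). For the difference of changes, 5 passed as deposited, where 6.46% of all genes passed in either direction, and 8 with centred arrays (9.39%). It was 12 without FXR BAT 1, 2 and 4 (6.50%) and 3 without control BAT 2 and 4 (3.65%). With 1 array left out it was 4 to 8, with 4.55% to 8.48% of all genes (8 without control BAT 5, with 7.59%). With the replicate number as a replicate block, 34 genes passed in BAT (8.03% of all genes fell) and 3 in WAT (0.512% fell). Between tissues it was 47 in control and 48 in FXR mice, where 94.7% and 94.8% of all genes were higher. For the difference of changes 11 passed, with 7.21% of all genes in either direction. Same-numbered arrays were not taken as pairs, since in no comparison did every pair's deviations correlate over 0.1: it was 1 of 5 between FXR and control BAT (-0.49 to 0.28), 1 of 4 in WAT, 3 of 4 between FXR tissues (0.06 to 0.13) and 2 of 4 between control tissues. In the last 2, 3 arrays correlated best with their own number, a hint from the data only.

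Values past the test as deposited turned sign under 2 scalings, listed here. Atp5g1 between control tissues is listed too, although it had not passed as deposited (0.03) and passed under both scalings. Values not past the test also turned sign when arrays were left out, such as Cox6a2 in BAT (-0.03 without FXR BAT 1, 2 and 4). With quantile normalization, the change in BAT was 0.0098 for Atp5a1, 0.033 for Atp5b, 0.012 for Atp5h, 0.00086 for Sdhb and 2.9e-05 for Uqcrc2. Between FXR tissues, quantile normalization gave -0.34 for Atp5g1, -0.34 for Atp5g3, -0.15 for Cox4i2, -0.045 for Cox6b2 and -0.78 for Atpif1, and centring gave -0.034 for Atp5g1, -0.056 for Cox4i2, -0.084 for Cox6b2, -0.40 for Cox7b2, -0.0036 for Cox8c and -0.32 for Atpif1. Between control tissues, quantile normalization gave -0.96 for Atp5g1, -0.60 for Atp5g3, -0.19 for Cox4i2 and -0.88 for Atpif1, and centring gave -0.64 for Atp5g1, -0.056 for Cox4i2, -0.28 for Cox7b2 and -0.30 for Atpif1. Both scalings shift bright against dim genes or whole arrays by construction. Dim genes, most of all in WAT, limit what can be seen.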
